A study of Mus musculus with 2 samples.

Results

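The genes described here carry pyruvate, ketone bodies and branched-chain amino acids (leucine, isoleucine and valine) into the tricarboxylic acid (TCA) cycle and turn that cycle. The set holds 50 genes of 55536 annotated mouse genes in the deposited gene tables, and its members were set by gene symbol, with no threshold on measured values. Every symbol matched 1 gene identifier, and the genes lie on 20 chromosomes. The samples are hearts of B6CASTF1/J males aged 2 months, which are hybrids of the first generation, with 1 B6 and 1 CAST parent, supplied by The Jackson Laboratory. There are 2 replicates, each with 1 library of total RNA from which ribosomal RNA was reduced. No treatment, second genotype or second tissue was included, so the results are levels with their spread, ratios within a heart and differences between the 2 hearts. The replicates carry different male and tissue numbers but the same donor entry in the labels, and are taken here as 2 mice. Spreads therefore measure the difference between these 2 samples only.

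In heart muscle most ATP is made by oxidation in mitochondria. Pyruvate enters the matrix through a carrier and is converted to acetyl-CoA by the pyruvate dehydrogenase complex, which kinases switch off and phosphatases switch on. Ketone bodies and branched-chain amino acids yield acetyl-CoA or succinyl-CoA by routes of their own, and the TCA cycle oxidises these units while supplying reducing equivalents to the respiratory chain.

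Expected counts of annotated genes summed to 38963569 in replicate 1 and 44321172 in replicate 2, and the members held 1.39% and 1.48% of them. The cardiomyocyte markers Myh6, Myl2, Tnnt2, Tnni3, Actc1 and Ryr2 were all present, with a summed level of 26042 TPM (a level per transcript length and library total) in replicate 1 and 28536 TPM in replicate 2. All 4 markers of endothelial cells, of fibroblasts, of pericytes and smooth muscle and of macrophages reached 1 TPM in both mice, so the levels reported are sums over the cell types of the heart. In such bulk tissue fewer cells of a type and less RNA per cell cannot be told apart. The red cell markers differed between the mice, with 13712 TPM in replicate 1 and 4292 TPM in replicate 2 over 4 genes, and the adipocyte markers summed to 3.44 and 7.87 TPM. None of the 4 liver or 4 skeletal muscle markers reached 1 TPM in both mice, and all 4 testis markers were listed at 0.

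Of the 50 genes, 48 (96%) reached 1 TPM in both hearts, a level reached by 21.5% of all annotated genes and 49.8% of nuclear protein-coding genes. The median level of the members was 87.1 ± 2.22 TPM (SD, n = 2 mice, as for every value with ± in the text), beside 8.68 ± 0.205 TPM over detected nuclear protein-coding genes. 45 of the detected members lay above the median of detected protein-coding genes, and 30 lay in the highest 10%. Summed over all members, the TPM amounted to 2.37 ± 0.0679% of the TPM of nuclear protein-coding genes. The TCA cycle genes held 1.42 ± 0.0509%, pyruvate dehydrogenase subunits 0.289 ± 0.00764%, ketone genes 0.193 ± 0.0028%, branched-chain amino acid genes 0.19 ± 0.00443% and the pyruvate carrier 0.149 ± 0.0019%. The TCA cycle group as used here also holds the cytosolic enzymes Mdh1, Idh1 and Aco1 and the NADPH-forming Idh2. The kinases and phosphatases of pyruvate dehydrogenase held 0.0971 ± 0.000875%, and the genes that replenish or drain the cycle held 0.0295 ± 0.0011%.

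**Figure D1:**
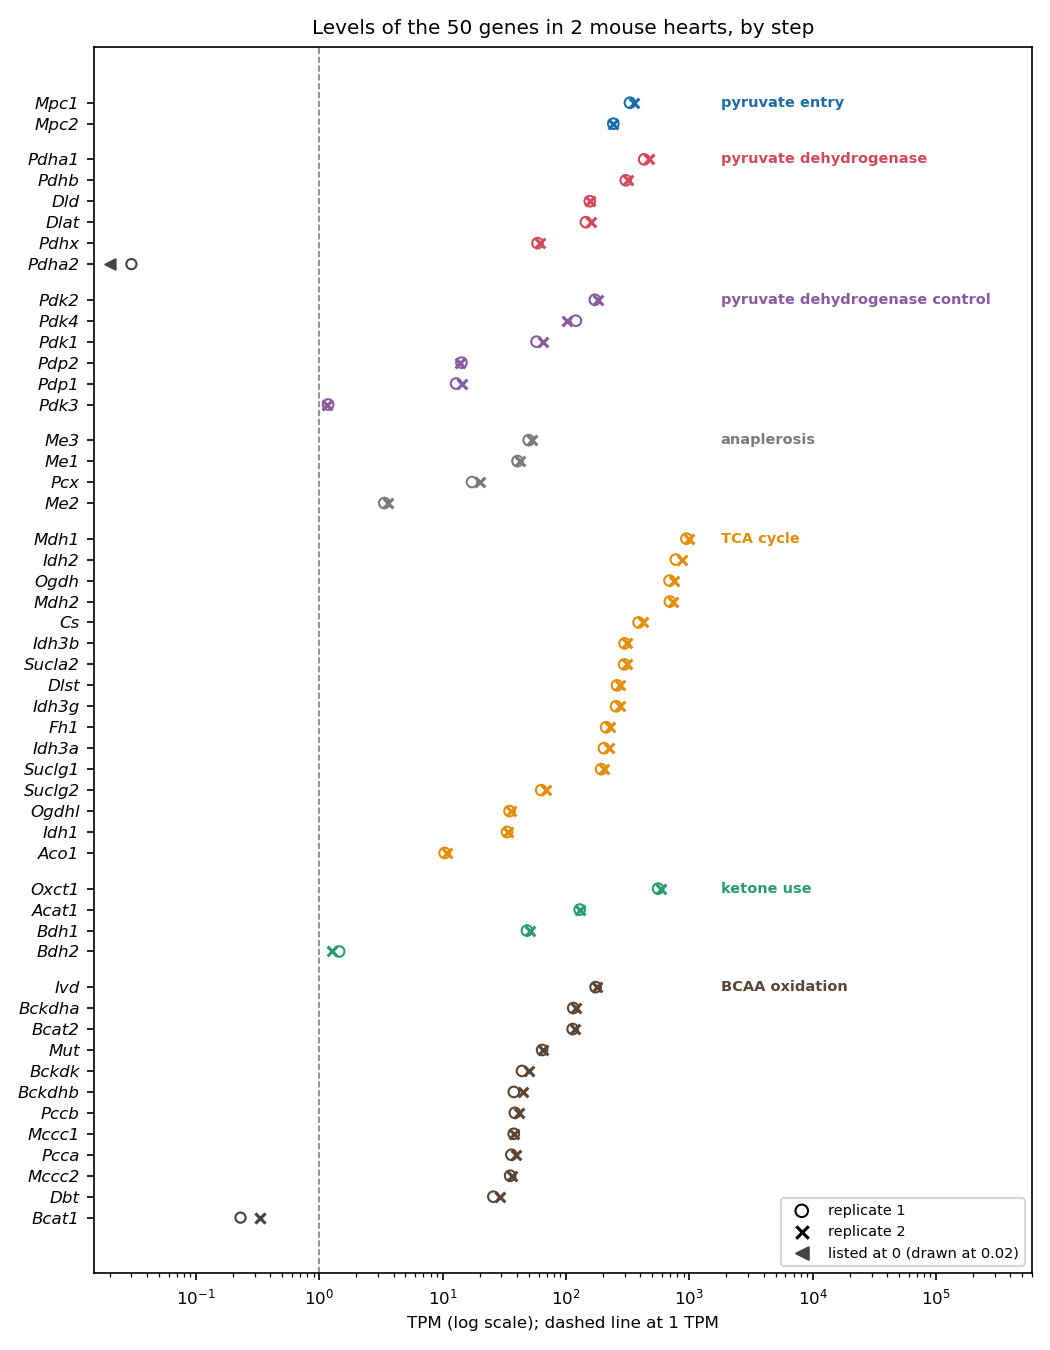
Gene-table TPM on a log axis for each of the 50 genes, grouped by step, with 1 open circle for replicate 1 and 1 cross for replicate 2. The markers of the 2 mice nearly coincide for most genes, and Pdha2 and Bcat1 lie left of the dashed line at 1 TPM. The TCA cycle group, which here includes the cytosolic Mdh1 and the NADPH-forming Idh2, holds 4 of the 5 highest genes.

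By TPM of the gene table the 5 highest members were Mdh1, Idh2, Ogdh, Mdh2 and Oxct1. Mdh1, the cytosolic malate dehydrogenase of the malate-aspartate shuttle, stood at 947 TPM in replicate 1 and 988 TPM in replicate 2. Idh2, the mitochondrial isocitrate dehydrogenase that forms NADPH, stood at 777 and 879 TPM. Ogdh, the E1 subunit of the oxoglutarate dehydrogenase complex, stood at 691 and 749.8 TPM, and Mdh2, the malate dehydrogenase of the cycle itself, at 696 and 739 TPM. The ranges of Ogdh and Mdh2 over the mice overlapped, so their order is not resolved, whereas Mdh1 and Idh2 were higher than both in each mouse by this measure. Oxct1, which activates acetoacetate with CoA from succinyl-CoA, stood at 558 and 584 TPM. The order depended on the quantification. Summed over a gene's transcripts in the table quantified directly from reads (the direct table), Ogdh was the highest member, at 1209 and 1282 TPM, with Idh2 at 871 and 988 TPM and Mdh1 at 823 and 922 TPM. Over full-length coding transcripts of the table quantified from aligned reads (the aligned table), Idh2 was at 769.9 and 872 TPM, Ogdh at 627 and 681 TPM and Mdh1 at 537 and 585 TPM, and Oxct1, at 309 and 312 TPM, lay below Pdha1 and Cs. Over the 47 neighbouring pairs in the order of the detected members by mean TPM, 22 had ranges that overlapped between the genes, and 38 kept the same order within each mouse.

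The lowest members were Pdha2, Bcat1, Pdk3, Bdh2 and Me2. Pdha2, the copy of the E1 alpha subunit known from testis (chr3:141210004-141212355, minus strand; mm10 with GENCODE M21 here and for all positions), had 2 expected counts in replicate 1 and 0 in replicate 2, where a count of 0 allows up to 3 counts, or 0.0677 cpm. Bcat1, the cytosolic transaminase of branched-chain amino acids, was at 0.23 and 0.33 TPM, from 9 and 18 counts. Pdk3, a pyruvate dehydrogenase kinase, was at 1.18 and 1.15 TPM, Bdh2, a cytosolic hydroxybutyrate dehydrogenase, at 1.45 and 1.26 TPM, and Me2, the mitochondrial NAD-dependent malic enzyme, at 3.37 and 3.63 TPM. By gene TPM these 5 genes lay below every other member in both mice. Bcat2, the mitochondrial counterpart of Bcat1, exceeded it by a ratio of 424 ± 97.1, a value that rests on the few Bcat1 counts. That ratio was 91 with 1 added to each TPM, 151 with posterior mean TPM, 280.3 ± 1.8 in the direct table and 1217 ± 848 over full-length coding transcripts of the aligned table. Pdk1 exceeded Pdk3 by 52.8 ± 5.48, or by 28.9 with 1 added to each TPM.

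Pyruvate import was represented by Mpc1 and Mpc2, whose products form the mitochondrial pyruvate carrier as a heterodimer. Mpc1 was at 330.0 TPM in replicate 1 and 353 TPM in replicate 2. Mpc2 was at 242 and 241 TPM. The ratio of Mpc2 to Mpc1 was 0.708 ± 0.0359, below 1 in both mice, and over full-length coding transcripts it was 0.438 ± 0.0351 in the direct table and 0.446 ± 0.00747 in the aligned table.

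The core of the pyruvate dehydrogenase complex was led by its E1 subunits. Pdha1, the E1 alpha subunit that carries the regulatory phosphorylation sites (chrX:160122209-160138413, minus strand), was at 430.4 TPM in replicate 1 and 467 TPM in replicate 2, and Pdhb, the E1 beta subunit, at 305 and 316 TPM. Dlat, the E2 acetyltransferase, was at 145 and 159 TPM, Dld, the E3 subunit shared with the oxoglutarate and branched-chain complexes, at 156 and 156 TPM, and Pdhx, which docks E3, at 58.9 and 61.9 TPM. Pdha1 exceeded Pdhb by a ratio of 1.44 ± 0.0488, or by 1.09 ± 0.0342 in the direct table. Over full-length coding transcripts that ratio was 1.48 ± 0.0345 in the direct table and 1.41 ± 0.0234 in the aligned table. Dlat exceeded Pdhx by 2.52 ± 0.0749, or by 5.19 ± 0.181 in the direct table. Over full-length coding transcripts the ratio of Dlat to Pdhx was 2.19 ± 0.0789 in the direct table and 2.38 ± 0.0751 in the aligned table. By gene TPM Dlat and Dld were not separated, with a ratio of 0.976 ± 0.0662 that lay below 1 in replicate 1 and above 1 in replicate 2. In the direct table that ratio was 1.44 ± 0.0707. Over full-length coding transcripts Dlat was below Dld, at a ratio of 0.665 ± 0.00906 in the direct table and 0.694 ± 0.000229 in the aligned table.

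Among the enzymes that set the activity of the complex, Pdk2 led the kinases. Pdk2 was at 171 TPM in replicate 1 and 183 TPM in replicate 2. Pdk4, the kinase known to rise with fasting and fatty acid supply, was at 120.3 and 102 TPM, and Pdk1 at 57.8 and 65.2 TPM. Pdk2 held 50.5 ± 2.25% of the summed TPM of the 4 kinases, Pdk4 31.7 ± 3.69%, Pdk1 17.5 ± 1.44% and Pdk3 0.332 ± 0.00704%. The order Pdk2, Pdk4, Pdk1, Pdk3 held in both mice, with a ratio of Pdk4 to Pdk2 of 0.63 ± 0.101 and of Pdk2 to Pdk1 of 2.89 ± 0.11. The phosphatases were far lower, with Pdp1 at 12.8 and 14.5 TPM and Pdp2 at 14.2 and 13.7 TPM, and the ratio of Pdp1 to Pdp2, 0.979 ± 0.108, lay on different sides of 1 in the 2 mice. The 4 kinases together exceeded the 2 phosphatases by a ratio of 12.9 in replicate 1 and 12.5 in replicate 2. It was 14 ± 0.129 in the direct table and 10.5 ± 0.266 over full-length coding transcripts of the aligned table. These are ratios of transcript levels and carry no measure of protein or enzyme activity.

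The genes that feed carbon into or out of the cycle beside acetyl-CoA lay below the median level of the members. Pcx, pyruvate carboxylase, was at 17.3 and 20.1 TPM, and Pdha1 exceeded it by a ratio of 24.1 ± 1.15. That ratio was 17.9 ± 0.267 in the direct table and 31.3 ± 0.0447 over full-length coding transcripts of the aligned table. Me1, the cytosolic malic enzyme, was at 40.5 and 42.1 TPM. Me3, a mitochondrial malic enzyme that uses NADP, was listed at 49.8 and 53.5 TPM in the gene table, but little of this lay on a full coding transcript in either transcript table.

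Within the TCA cycle, citrate synthase (Cs), which condenses acetyl-CoA with oxaloacetate, was at 388 TPM in replicate 1 and 418 TPM in replicate 2. Idh2 exceeded the cytosolic Idh1, at 33.3 and 34.1 TPM, by a ratio of 24.6 ± 1.74. Aco1, the cytosolic aconitase that also acts as an iron-responsive RNA-binding protein, was at 10.4 and 10.8 TPM. The 3 subunits of the NAD-dependent isocitrate dehydrogenase were at 299 and 313 TPM for Idh3b, 255 and 272 TPM for Idh3g and 203 and 223 TPM for Idh3a, the catalytic subunit. Idh3b exceeded Idh3a by 1.44 ± 0.0465 and Idh3g exceeded it by 1.24 ± 0.0249, and Idh2 exceeded Idh3a by 3.88 ± 0.0815, ratios that were larger over full-length coding transcripts. In the holoenzyme of mammals the alpha subunit is the most numerous, so the order of these transcripts is not that of the subunits in the enzyme.

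Ogdh exceeded Dlst, the E2 subunit of the same complex, by a ratio of 2.7 ± 0.0486, with Dlst at 259 and 274 TPM. Ogdhl, a paralog of Ogdh best known from brain, was at 34.9 and 35.9 TPM, and Ogdh exceeded it by 20.4 ± 0.779, or by 32.2 ± 1.23 in the direct table. Succinyl-CoA ligase pairs the alpha subunit Suclg1 with the ADP-forming beta subunit Sucla2 or the GDP-forming one Suclg2. Suclg1 was at 193 and 203 TPM, Sucla2 at 296 and 311 TPM and Suclg2 at 63 and 68.7 TPM. Sucla2 exceeded Suclg2 by 4.61 ± 0.125, and the 2 beta subunits together exceeded Suclg1 by 1.86 ± 0.00168. The latter ratio was 1.64 ± 0.0139 in the direct table and 2.38 ± 0.00572 over full-length coding transcripts of the aligned table. Fh1, fumarase, was at 212 and 228 TPM, and Mdh2 exceeded it by 3.27 ± 0.032. The ratio of Mdh2 to Fh1 was 2.11 ± 0.0999 in the direct table, and over full-length coding transcripts it was 5.98 ± 0.0511 in the direct table and 3.76 ± 0.0351 in the aligned table. The cytosolic Mdh1 exceeded Mdh2 by 1.35 ± 0.0168, or by 1.06 ± 0.0216 in the direct table. Over full-length coding transcripts the ratio of Mdh1 to Mdh2 was 1.13 ± 0.00124 in the direct table and 1.33 ± 0.0184 in the aligned table.

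In ketone use, Oxct1 stood well above the other steps. Acat1, the mitochondrial thiolase that splits acetoacetyl-CoA and also serves isoleucine breakdown, was at 129 TPM in replicate 1 and 131 TPM in replicate 2, a ratio to Oxct1 of 0.228 ± 0.00496. That ratio was 0.368 ± 0.0228 in the direct table, and over full-length coding transcripts 0.35 ± 0.0125 in the direct table and 0.403 ± 0.0144 in the aligned table. Bdh1, which oxidises hydroxybutyrate to acetoacetate, was at 48.3 and 51.2 TPM, and Oxct1 exceeded it by 11.5 ± 0.0979, or by 17.7 ± 0.753 in the direct table. Bdh1 exceeded the sparsely counted Bdh2 by 37 ± 5.15. With 1 added to each TPM the ratio of Bdh1 to Bdh2 was 21.6, by direct quantification 24.3 ± 0.541, and over full-length coding transcripts 20.2 ± 1.77 in the direct table and 16.8 ± 1.18 in the aligned table.

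By gene TPM branched-chain amino acid oxidation was led by Ivd, the isovaleryl-CoA dehydrogenase of leucine breakdown, at 174 TPM in replicate 1 and 178 TPM in replicate 2. Bcat2, the mitochondrial transaminase of the first step, was at 113 and 117 TPM. Of the branched-chain ketoacid dehydrogenase, the E1 alpha subunit Bckdha was at 115 and 119.7 TPM, the E1 beta subunit Bckdhb at 37.8 and 45.1 TPM and the E2 subunit Dbt at 25.8 and 29.4 TPM. Over full-length coding transcripts of the direct table Bckdha, at 126 and 137 TPM, was above Ivd, at 102 and 105 TPM. In the aligned table their ranges overlapped, with Bckdha at 102 and 112 TPM and Ivd at 103 and 106 TPM. Bckdha exceeded its partner Bckdhb by 2.84 ± 0.268 and Dbt by 4.26 ± 0.262. Bckdk, the kinase that inactivates this complex, was at 44 and 50.4 TPM, a ratio of 1.25 ± 0.0296 to Ppm1k, the phosphatase that activates it and no member of the set, at 35.8 and 39.6 TPM. The ratio of Bckdk to Ppm1k was 1.69 ± 0.00958 in the direct table. Over full-length coding transcripts it was 1.1 ± 0.0275 in the direct table and 1.09 ± 0.0492 in the aligned table. For pyruvate dehydrogenase the 4 summed kinases exceeded the 2 summed phosphatases by 12.7 ± 0.32, a ratio of sums that is unlike that of 1 gene to 1 gene. Taken singly, Pdk2, the highest of these kinases, exceeded Pdp1 by 13 ± 0.473. By these 2 measures the ratio of kinase to phosphatase was nearer to even for the branched-chain complex in both mice.

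The biotin-dependent carboxylases of these routes were close to even in their subunits by gene TPM. Mccc1 and Mccc2, subunits of methylcrotonyl-CoA carboxylase in leucine breakdown, were at 37.8 and 37.8 TPM and at 35.3 and 36.5 TPM, a ratio of 1.05 ± 0.0255 that was 0.945 and 0.817 over full-length coding transcripts in the 2 transcript tables. Pcca and Pccb, subunits of propionyl-CoA carboxylase, were at 36.1 and 39.2 TPM and at 38.5 and 41.7 TPM, a ratio of 0.939 ± 0.00152 that over full-length coding transcripts was 0.677 ± 0.018 in the direct table and 0.669 ± 0.0351 in the aligned table. Mut, the methylmalonyl-CoA mutase that delivers succinyl-CoA to the cycle, was at 64.1 and 65.4 TPM. Of the 32 ratios formed, the first gene was higher in both mice in 24, lower in both in 5 and on different sides in 2, and 1 (Pdha1 to Pdha2) had no value in replicate 2.

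**Figure D2:**
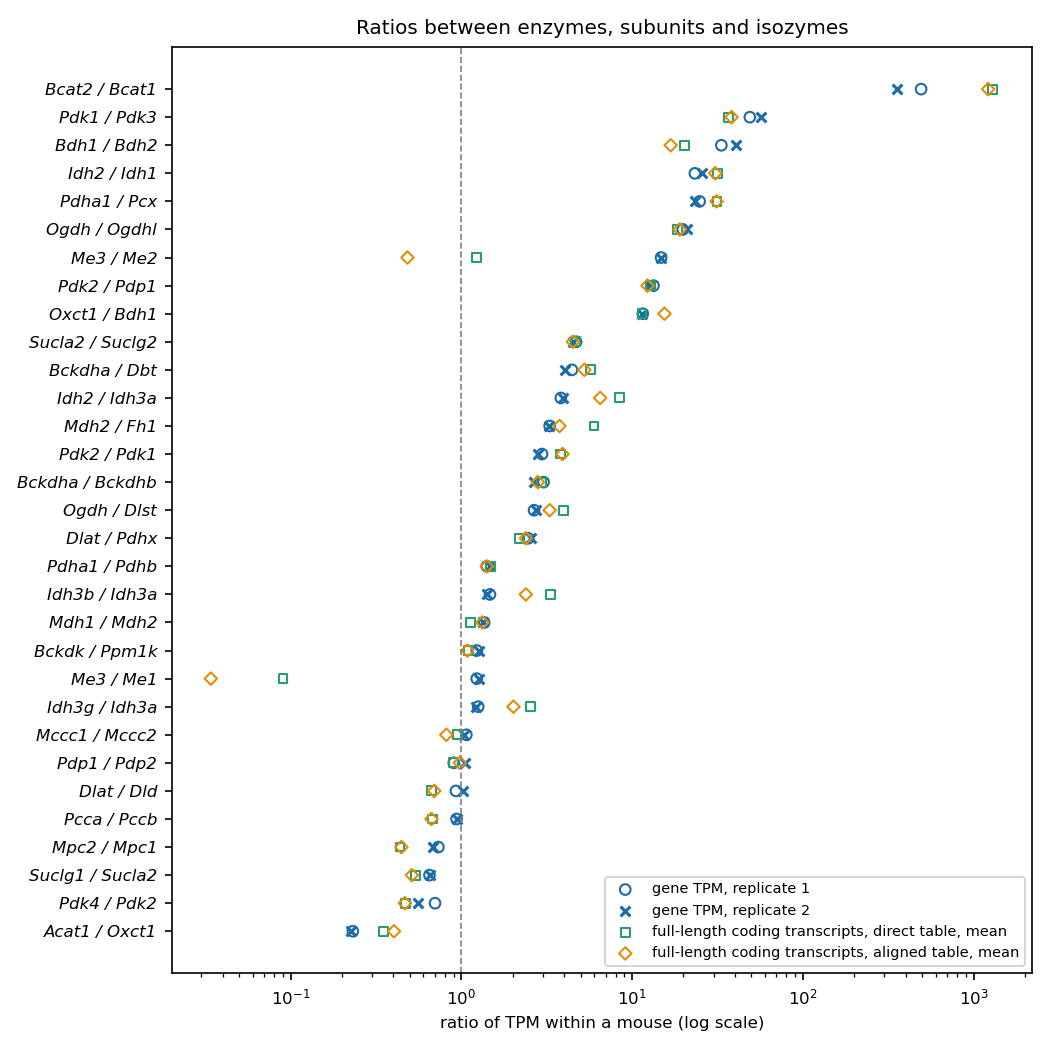
Ratios of TPM within a mouse on a log axis for the pairs with a value in both mice, with open circles for replicate 1 and crosses for replicate 2 of the gene table, and squares (direct table) and diamonds (aligned table) for means over full-length coding transcripts. The 2 mice lie close together in most pairs, with Bcat2 to Bcat1 farthest apart, and Me3 to Me1 and Me3 to Me2 move far to the left when only full-length coding transcripts are counted.

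Both transcript tables place each gene's RNA on annotated transcripts. Transcripts were classed as full-length coding, coding but annotated as incomplete at an end, nonsense-mediated decay (NMD, carrying an early stop), retained intron, or other noncoding. Over the detected members the median share of a gene's TPM on full-length coding transcripts was 79 ± 0.600% in the direct table and 81.1 ± 4.06% in the aligned table. Over all detected protein-coding genes it was 81.6 ± 1.01% and 86.8 ± 0.849%. With incomplete coding transcripts added, the medians were 95.1 ± 1.38% and 95.2 ± 0.524% for the members, beside 92.3 ± 0.931% and 94.1 ± 0.817% for all detected protein-coding genes. In 13 members, among them Cs, Idh2, Idh3b, Sucla2 and Pdha1, full-length coding transcripts held at least 90% of the TPM in both tables. The same count was not made over all genes, whose median full-length coding share was above that of the members in both tables.

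**Figure D3:**
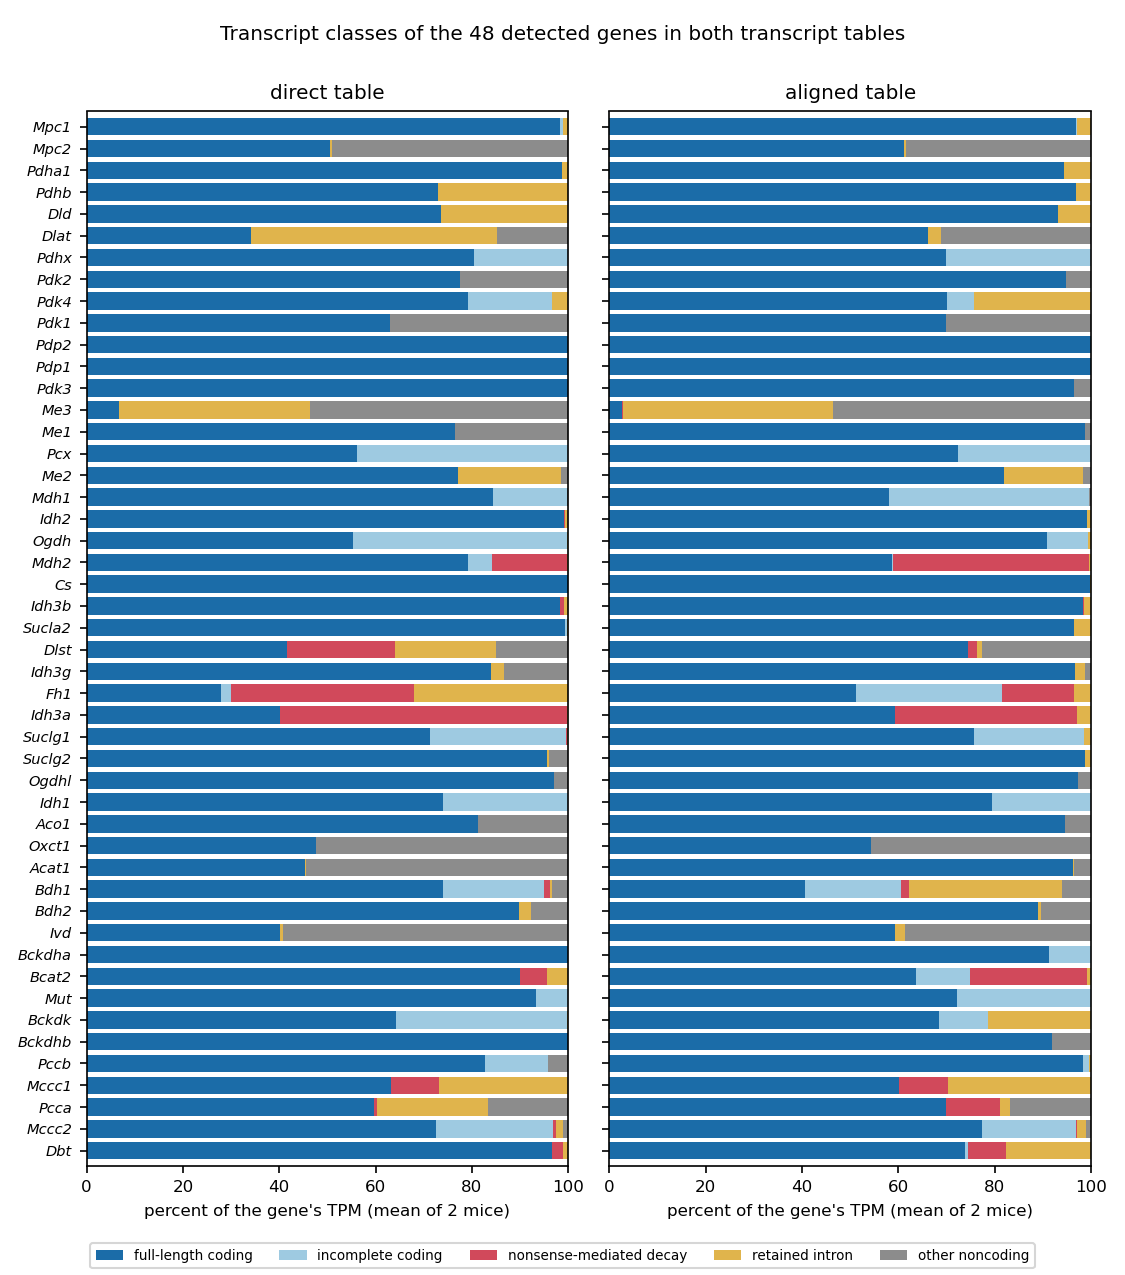
Stacked bars of the share of each detected gene's TPM (percent, mean of 2 mice) on 5 transcript classes, in the direct table on the left and the aligned table on the right. Me3 has almost no full-length coding share in either panel, and many genes have a larger retained-intron or noncoding share in the direct table. Idh3a, Mdh2, Fh1, Bcat2 and Mccc1 are among the genes with NMD transcripts in both.

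The member whose transcripts went furthest from its gene-level value was Me3 (chr7:89632392-89854359, plus strand). Its 1 full-length coding transcript, Me3-202, was at 3.85 and 3.87 TPM in the direct table and 1.44 and 1.34 TPM in the aligned table, or 6.65% and 2.69% of the gene. Me3-201, annotated without a reading frame, was at 29.2 and 31.2 TPM in the direct table and 25.6 and 28.5 TPM in the aligned table. Me3-203, annotated as retaining an intron, was at 21.7 and 23.4 TPM in the direct table and 21.8 and 22.7 TPM in the aligned table. Me3-201 begins inside the gene with an exon of its own (chr7:89829282-89829340, 59 bases) that Me3-202 lacks, shown here in capitals because it is the sequence that tells the 2 apart at the start, followed by 15 bases of the next, shared exon in lower case.
Me3-201 first exon: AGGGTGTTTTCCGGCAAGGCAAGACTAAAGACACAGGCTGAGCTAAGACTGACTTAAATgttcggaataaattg

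Of the 13 introns of Me3-202, 7 are shared by Me3-201 and 10 by Me3-203, and each of the 13 is in Me3-201 or Me3-203. The last exon has 227 bases in Me3-201 against 2624 bases in Me3-202. Reads on the shared exons cannot be told apart between these transcripts by position alone, and the split between them is the estimate of each table. By gene TPM Me3 exceeded Me1 by 1.25 ± 0.0296 and Me2 by 14.8 ± 0.0299. Over full-length coding transcripts the ratio of Me3 to Me1 was 0.0902 ± 0.00187 in the direct table and 0.0341 ± 0.00222 in the aligned table, and that of Me3 to Me2 was 1.22 ± 0.0817 in the direct table and 0.483 ± 0.00438 in the aligned table.

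Idh3a (chr9:54586334-54604661, plus strand) was split between its full-length coding transcript Idh3a-205 and the NMD transcript Idh3a-204, in both tables and in unequal proportion. Idh3a-205 was at 104 and 114 TPM in the direct table and 123 and 129 TPM in the aligned table. Idh3a-204 was at 154 and 167 TPM in the direct table and 73.4 and 88.3 TPM in the aligned table. The NMD transcript thus held 59.7 ± 0.312% of their sum in the direct table and 39 ± 2.25% in the aligned table. It carries a cassette of 95 bases as its exon 3 (chr9:54592161-54592255), in which the reading frame ends after 24 bases. The stretch is shown with the cassette in capitals up to and including the stop, after 15 lower-case bases of the coding exon before it.
Idh3a-204 cassette to its stop: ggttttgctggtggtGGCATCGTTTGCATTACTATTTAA

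With full-length coding transcripts alone, the ratio of Idh3b to Idh3a was 3.34 ± 0.0956 in the direct table and 2.39 ± 0.00428 in the aligned table, above the gene-level ratio of 1.44 ± 0.0465. The ratio of Idh3g to Idh3a was then 2.54 ± 0.0831 in the direct table and 2.02 ± 0.0207 in the aligned table, and that of Idh2 to Idh3a 8.46 ± 0.184 in the direct table and 6.5 ± 0.334 in the aligned table.

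Mdh2 (chr5:135778480-135790398, plus strand) was divided between Mdh2-201, which codes for the full protein, and Mdh2-203, an NMD transcript that skips the second exon. Mdh2-201 was at 626 and 672 TPM in the direct table and 408 and 436 TPM in the aligned table. Mdh2-203 was at 127 and 127 TPM in the direct table and 284 and 299.8 TPM in the aligned table, or 16.4 ± 0.63% and 40.9 ± 0.18% of the sum. The skipped exon (chr5:135783305-135783473) has 169 bases, which is not a multiple of 3, and the annotated coding length is 156 bases in Mdh2-203 against 1017 bases in Mdh2-201. It is shown in capitals between 15 lower-case bases of each neighbouring exon.
Mdh2 second exon: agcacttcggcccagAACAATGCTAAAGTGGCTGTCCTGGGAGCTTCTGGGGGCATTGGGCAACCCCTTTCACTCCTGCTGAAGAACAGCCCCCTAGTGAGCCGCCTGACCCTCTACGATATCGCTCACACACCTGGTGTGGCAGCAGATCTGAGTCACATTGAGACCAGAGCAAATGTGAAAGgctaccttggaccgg

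The 2 tables give the same order of Mdh2-201 over Mdh2-203 in each mouse, but the share of the skipped form differed more between the tables than between the mice.

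Ogdh (chr11:6291633-6356642, plus strand) has coding transcripts that use 1 of 2 alternative exons as exon 4. Ogdh-201 and Ogdh-204 carry an exon of 103 bases, and Ogdh-202 and Ogdh-203 carry an upstream one of 91 bases, with a further exon of 45 bases in Ogdh-203. In human OGDH, splice variants of this region have been described as differing in how the enzyme responds to calcium. The exons are shown in capitals between 15 lower-case bases of their neighbours, to let the alternative coding sequences be compared.
Ogdh-201 exon 4, chr11:6316978-6317080: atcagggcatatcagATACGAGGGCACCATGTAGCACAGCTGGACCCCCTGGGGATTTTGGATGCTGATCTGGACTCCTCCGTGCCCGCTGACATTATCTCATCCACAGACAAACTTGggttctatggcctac
Ogdh-202 exon 4, chr11:6316765-6316855: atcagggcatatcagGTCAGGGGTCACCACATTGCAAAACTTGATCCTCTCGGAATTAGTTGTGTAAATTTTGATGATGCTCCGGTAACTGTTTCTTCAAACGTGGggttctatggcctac
Ogdh-203 exon 5, chr11:6324878-6324922: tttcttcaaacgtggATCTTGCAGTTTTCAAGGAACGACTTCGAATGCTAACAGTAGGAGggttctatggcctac

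Transcripts with the 103-base exon summed to 655 and 717 TPM in the direct table and 620.2 and 673 TPM in the aligned table. Those with the 91-base exon summed to 3.94 and 3.77 TPM in the direct table and 7.21 and 7.8 TPM in the aligned table. The longer exon was therefore in 99.4 ± 0.0523% and 98.9 ± 0.00291% of this sum, a choice on which both tables and both mice gave nearly the same value. The tables differed on Ogdh-204, at 1.71 and 2.29 TPM in the direct table and 177 and 184 TPM in the aligned table, while Ogdh-201 was at 654 and 714 TPM in the direct table and 443 and 489 TPM in the aligned table.

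Other well-expressed members carried much of their TPM on noncoding transcripts in both tables. For Oxct1 the full-length coding Oxct1-201 was at 351 and 357 TPM in the direct table and 306 and 309.9 TPM in the aligned table. The noncoding Oxct1-203, of 699 bases and 7 exons, was at 274 and 306 TPM in the direct table and 113 and 125 TPM in the aligned table, and the tables placed further noncoding RNA on different transcripts, Oxct1-204 in the direct table and Oxct1-202 in the aligned table. Full-length coding transcripts thus held 47.7% of Oxct1 in the direct table and 54.4% in the aligned table.

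For Ivd the full-length coding share was 40.3% in the direct table and 59.3% in the aligned table. The coding Ivd-201 itself was at 102 and 105 TPM in the direct table and 103 and 106 TPM in the aligned table, nearly the same in both, and the tables differed on the noncoding Ivd-206, at 72.2 and 74 TPM in the direct table and 33.5 and 36.3 TPM in the aligned table, and Ivd-207, at 82.6 and 74.8 TPM in the direct table and 33 and 24.3 TPM in the aligned table. For Mpc2 the noncoding Mpc2-203, of 493 bases, was at 222 and 215 TPM in the direct table and 97 and 88.7 TPM in the aligned table, beside the coding Mpc2-201 at 223 and 229 TPM in the direct table and 144 and 151 TPM in the aligned table. For Mdh1 the share that was not full-length coding lay on the incomplete Mdh1-202, at 110.2 and 158 TPM in the direct table and 406 and 398 TPM in the aligned table, with Mdh1-201 at 711 and 761 TPM in the direct table and 537 and 585 TPM in the aligned table.

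The dominant transcript, the one with the highest mean TPM, differed between the tables in 8 of the 47 detected members with 2 or more transcripts (17%), beside 24.1% of such protein-coding genes. The 8 genes were Pdp1, Pcx, Idh1, Idh3a, Sucla2, Fh1, Bdh1 and Acat1. For Idh1 the coding transcripts Idh1-203, at 23.8 and 25 TPM in the direct table and 0 and 0 TPM in the aligned table, and Idh1-201, at 5.55 and 3.95 TPM in the direct table and 26.8 and 26.8 TPM in the aligned table, changed places, although both have the same coding length of 1245 bases. For Sucla2, Sucla2-201 was at 172 and 185 TPM in the direct table and 109 and 124 TPM in the aligned table, and Sucla2-203 at 172 and 179 TPM in the direct table and 175 and 177 TPM in the aligned table, so that the exchange rests on a small difference. For Pdp1, Pdp1-205 was at 11 and 10.1 TPM in the direct table and 0 and 0.91 TPM in the aligned table, and Pdp1-201 at 9.42e-05 and 2.63 TPM in the direct table and 2.99 and 4.66 TPM in the aligned table. For Pcx, the incomplete Pcx-205 was at 11.1 and 11.2 TPM in the direct table and 0 and 0 TPM in the aligned table, and Pcx-204 at 6.02 and 12 TPM in the direct table and 6.6 and 11.2 TPM in the aligned table. Pdp1-201 and Pcx-204 also differed between the mice by more than the genes did.

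Bdh1 (chr16:31422280-31458901, plus strand) was the other member, beside Me3, whose dominant transcript in the aligned table was not a full-length coding one, 2 of 47 members (4.26%) beside 10.4% of such genes. Its retained-intron transcript Bdh1-205, of 438 bases, was at 0 and 0.367 TPM in the direct table and 14.7 and 17 TPM in the aligned table. The coding Bdh1-202 was at 19.1 and 18.1 TPM in the direct table and 5.9 and 5.61 TPM in the aligned table, and the coding Bdh1-203 at 13.5 and 11.9 TPM in the direct table and 15.5 and 13.3 TPM in the aligned table. In the direct table the dominant transcript was not a full-length coding one in 5 of 47 members (10.6%), beside 14.3% of such genes. These were Pcx, Idh3a, Fh1, Me3 and Acat1.

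The gene-level sums also differed between the tables. Gene TPM was higher in the direct table for 41 of the 48 detected members. Directions were not counted over all genes, here or for the genes over 1.5 times apart. The median ratio of direct to gene-table TPM was 1.19 over members and 1.15 over detected protein-coding genes. A higher value in the direct table was thus usual beyond the members too. In 7 members (14.6%) the tables were over 1.5 times apart, beside 12.2% of detected protein-coding genes, and in each of the 7 the direct table was the higher. These were Acat1, Dlat, Mpc2, Fh1, Ogdh, Dlst and Mpc1. Acat1 stood at 282 and 268 TPM in the direct table against 129 and 131 TPM in the gene table. Dlat stood at 296 and 315 TPM in the direct table against 145 and 159 TPM in the gene table. Ogdh stood at 1209 and 1282 TPM in the direct table against 691 and 749.8 TPM in the gene table.

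In 5 of these 7 (Acat1, Dlat, Ogdh, Fh1 and Dlst) the excess lay on transcripts other than the full-length coding ones. Acat1-203, a noncoding transcript of 500 bases and 2 exons, was at 161 and 139 TPM in the direct table and 7.3 and 1.69 TPM in the aligned table, whereas the full-length coding Acat1-201 was at 121 and 129 TPM in the direct table and 122 and 129 TPM in the aligned table. Ogdh-206, an incomplete transcript of 621 bases, was at 273 and 288 TPM in the direct table and 6.88 and 10.7 TPM in the aligned table. Ogdh-207, another of 702 bases, was at 274 and 272 TPM in the direct table and 51.9 and 54.5 TPM in the aligned table. The full-length coding transcripts of Dlat were at 101 and 107 TPM in the direct table against 98.4 and 103 TPM in the aligned table, and those of Ogdh at 659 and 720.4 TPM in the direct table against 627 and 681 TPM in the aligned table. Fh1 stood at 384 and 391 TPM in the direct table against 212 and 228 TPM in the gene table, while its full-length coding Fh1-201 was at 104 and 113 TPM in the direct table and 109 and 115 TPM in the aligned table. The excess of Fh1 lay on the NMD transcript Fh1-204, at 144 and 151 TPM in the direct table and 32.1 and 33.7 TPM in the aligned table, and on the retained-intron Fh1-202, at 130.3 and 117 TPM in the direct table and 6.54 and 7.92 TPM in the aligned table. Dlst stood at 384 and 448 TPM in the direct table against 259 and 274 TPM in the gene table, and its full-length coding Dlst-201 at 180.2 and 167 TPM in the direct table and 193 and 205 TPM in the aligned table.

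For the carrier genes the difference also lay on the full-length coding transcripts. Mpc1 had 481 and 555 TPM in the direct table against 319 and 344 TPM in the aligned table, and Mpc2 had 223 and 229 TPM in the direct table against 144 and 151 TPM in the aligned table.

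Counting full-length coding transcripts only, 5 of 48 members (10.4%) were over 1.5 times apart between the tables, beside 6.23% of protein-coding genes with 1 TPM of such transcripts in both mice. These were Me3, Mpc1, Bdh1, Mdh2 and Mpc2, and in each the direct table was the higher, a direction that was not counted over all genes. The median ratio of direct to aligned TPM was then 1.1 over members and 1.1 over those protein-coding genes. Within Mpc1, the short transcript Mpc1-202, of 555 bases, was at 51 and 128 TPM in the direct table and 1.48 and 1.82 TPM in the aligned table, and the main Mpc1-208, of 958 bases, at 425 and 422 TPM in the direct table and 312 and 318 TPM in the aligned table.

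**Figure D4:**
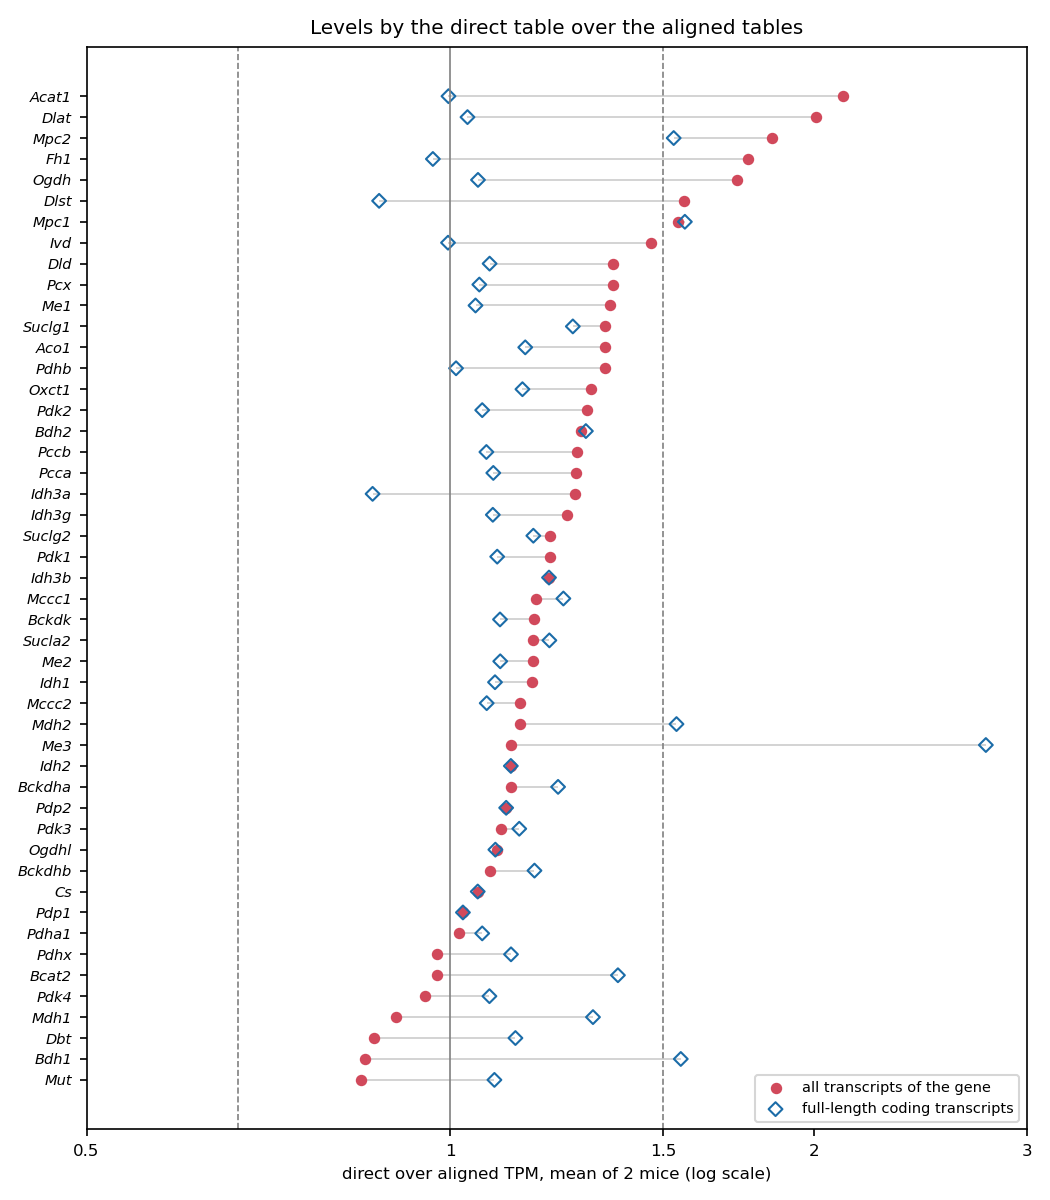
Ratio of TPM in the direct table to that in the gene or aligned table (mean of 2 mice, log axis) for each detected gene, with filled circles for all transcripts of the gene and diamonds for full-length coding transcripts; dashed lines mark 1.5 times. The circles of Acat1, Dlat, Fh1, Ogdh and Dlst lie beyond 1.5 while their diamonds lie near 1, and the diamonds of Me3, Mpc1, Bdh1, Mdh2 and Mpc2 lie beyond 1.5.

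Between the 2 hearts the members differed little. Of the 47 members whose expected counts averaged 50 or more, 0 were 2-fold or more apart after scaling by trimmed mean of M-values (TMM), beside 0.57% of all such genes. At that share most sets of this size would hold none, so the count does not set the members apart. The median absolute log2 ratio was 0.04 over members and 0.08 over all genes tested. Among genes with a mean count of at least 1000 it was 0.03 over 45 members and 0.05 over 4274 genes, a smaller gap than over all depths. The 3 members under a mean count of 50 (Pdha2, Bcat1 and Bdh2) were left out.

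Pdk4 (chr6:5483351-5496309, minus strand) was the member farthest apart. It was at 120.3 TPM in replicate 1 and 102 TPM in replicate 2, with a log2 ratio of replicate 1 over replicate 2 of 0.31 (95% counting interval 0.27 to 0.36). In contrast, the other well-expressed kinases were slightly lower in replicate 1 by TPM. The full-length coding transcript Pdk4-201 showed the same order, with 91.3 and 76.8 TPM in the direct table and 85.3 and 70.7 TPM in the aligned table. Pdk3 followed with a log2 ratio of 0.17 (95% counting interval -0.30 to 0.66), an interval that includes 0. Bdh1 was next at 0.15 (95% counting interval 0.06 to 0.23), although its TPM, 48.3 in replicate 1 and 51.2 in replicate 2, were in the other order.

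In the other direction the 3 farthest members were Idh2, Bckdhb and Suclg2. Idh2 had a log2 ratio of -0.13 (95% counting interval -0.15 to -0.11), Bckdhb of -0.11 (95% counting interval -0.20 to -0.01) and Suclg2 of -0.09 (95% counting interval -0.15 to -0.04). Each was lower in replicate 1 also by TPM, at 777 and 879 TPM for Idh2, 37.8 and 45.1 TPM for Bckdhb and 63 and 68.7 TPM for Suclg2. Counting intervals excluded 0 in 14 members that were lower in replicate 1 and 4 that were higher (Pdk4, Bdh1, Pdp2 and Oxct1), all among the 45 with a mean count of at least 1000. Of all genes at that count the interval lay below 0 in 19.9% and above 0 in 9.64%, and of all genes tested in 10.9% and 8.62%. Scaled by the spike-in RNA, Bdh1, Pdp2 and Oxct1 turned to -0.02, -0.07 and -0.15, and Oxct1 turned also under total counts, whereas Pdk4 stayed higher in replicate 1 under every scaling tried, with a lowest value of 0.14. These intervals cover counting error alone and, with 1 library per mouse, hold no measure of the spread between animals.

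Members were more often lower in replicate 1. After TMM scaling 32 of 47 (68.1%) were lower in replicate 1 than in replicate 2, beside 52% of all genes tested, and beside 60% among genes with a mean count of at least 1000, where it was 32 of 45 members. The median log2 ratio was -0.03 over members and -0.01 over all genes. Spike-in scaling moved these medians to -0.20 and -0.18, with 45 of 47 members and 87.9% of all genes lower in replicate 1. Total-count scaling gave 41 of 47 members and 67.6% of all genes. The gap between the medians of members and of all genes was -0.02 with TMM and -0.02 with spike-ins, and -0.01 with TMM among genes with a mean count of at least 1000. By TPM, 42 of the 48 detected members were lower in replicate 1, beside 66.6% of detected nuclear protein-coding genes. At a mean count of at least 1000 it was 41 of 45 members, beside 77% of genes. The cardiomyocyte markers moved the same way, at 7294 and 8105 TPM for Myh6 and 3282 and 3564 TPM for Tnnt2 in replicates 1 and 2, while Ryr2 was at 390.3 and 391 TPM. This was not particular to cardiomyocytes. Summed markers were at 141 and 144.52 TPM for endothelial cells and 170.72 and 187.45 TPM for fibroblasts. Those of pericytes and smooth muscle were at 157.22 and 182.15 TPM and those of macrophages at 34.25 and 34.88 TPM. Red cell markers went the other way. The haemoglobin transcripts Hbb-bs, Hbb-bt, Hba-a1 and Hba-a2 took 5.24% of nuclear protein-coding TPM in replicate 1 and 1.62% in replicate 2. Their part in the small shift of the members was not tested.

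**Figure D5:**
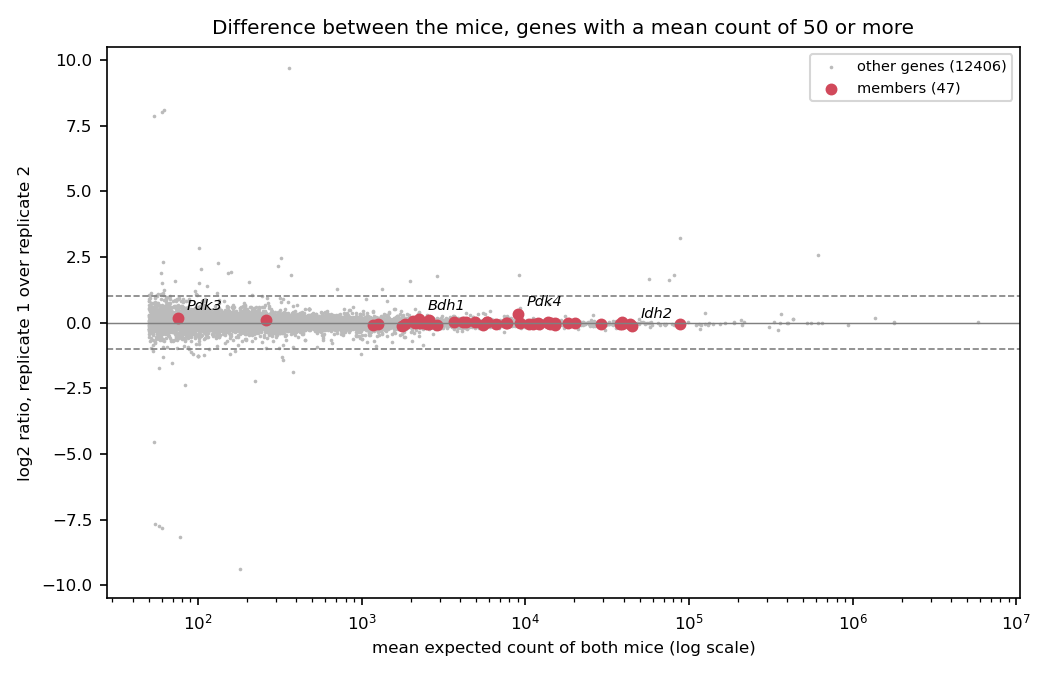
Log2 ratio of replicate 1 over replicate 2 after TMM scaling against the mean expected count (log axis) for genes with a mean count of 50 or more, with members as large points over all other genes in grey and dashed lines at 2-fold. All 47 members lie between the dashed lines, and Pdk4 is the highest of them at 0.31.

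Genes of the same routes outside the set were also mostly present and close between the mice. Of 37 such neighbours, 36 were detected in both mice, with a median of 56.1 TPM, and 1 of the 36 tested was 2-fold or more apart between the mice. The succinate dehydrogenase subunits were at 558 and 602 TPM for Sdha, 476 and 515 TPM for Sdhb, 439 and 493 TPM for Sdhc and 241 and 258 TPM for Sdhd. Ldhb, the lactate dehydrogenase subunit typical of heart, was at 1141 and 1239 TPM, and Ldha at 275 and 283 TPM. The aspartate transaminases Got1 and Got2, which work with Mdh1 and Mdh2 in the malate-aspartate shuttle, were at 439 and 469 TPM and at 283 and 296 TPM. Slc16a3, a lactate exporter of glycolytic tissue, was the 1 gene not detected, at 0.61 and 0.5 TPM.

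The neighbour that was 2-fold apart was Pck1, the cytosolic phosphoenolpyruvate carboxykinase of liver, kidney and fat, at 1.96 and 6.88 TPM, a log2 ratio of -1.86. The adipocyte markers were also lower in replicate 1, at 1.13 and 2.25 TPM for Adipoq, 1.25 and 2.61 TPM for Plin1, 1.05 and 2.98 TPM for Cidec and 0.01 and 0.03 TPM for Lep, whose counts are near 0. Their part in the difference of Pck1 was not tested.

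Several members share sequence with other genes, which bears on how firmly their counts are known. Of the 31-base words of each member's transcripts, read on either strand, over 10% occurred in another gene for 9 members, and the median was 0.795%. Bckdha shared 54.6%, all with B3gnt8, which overlaps it on the opposite strand. Me1 shared 36.9%, Suclg2 20.7% and Pdhb 17.9%, mostly with processed pseudogenes. Mpc1 shared 30.8%, the largest part of it with the overlapping 4930506C21Rik. Exons of 14 members overlap a gene on the opposite strand, and the labels and headers do not give whether counting used strand. Neither shared words nor overlaps were counted over all genes, so these counts cannot be set against a general share. The overlapping genes with the highest levels were Nop56, beside Idh3b, at 10.8 and 11 TPM, and Ggact, beside Pcca, at 8.45 and 9.81 TPM. B3gnt8 was at 1.16 and 0.89 TPM, far below Bckdha.

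Promoter windows from RefSeq (GRCm38.p6, 250 bases before to 50 after each start) matched 44 of the 50 members. Both strands were searched for 3 short motifs, that of oestrogen-related receptors (TNAAGGTCA), of NRF1 (GCGCATGCG) and a core of ETS factors such as GABPA (CCGGAAG). The first was in windows of 0 of 44 members and of 1.43% of all 27025 gene symbols with a window. The NRF1 motif was in 2 members (Ogdh and Pccb) and 1.95% of those symbols. The ETS core was in 4 members (Dlst, Idh3b, Idh3g and Mpc1) and 9.93% of those symbols. These matches describe the windows only, since no binding or chromatin data were measured here.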

How the data were processed

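Total RNA with ERCC spike-ins was sequenced from 2 hearts, with 300 ng of starting RNA per library. Each library came with 3 tables on mm10 and GENCODE M21, per the file headers and deposited notes: a gene table and a transcript table made from transcriptome alignments by the authors, with expected counts, TPM and FPKM, and a transcript table made directly from the reads, with deposited estimated counts and TPM. The aligner, the quantifiers and their versions, and the use of strand in counting, were not given in the sources used here. Reads of the CAST allele were compared with a B6 reference, and the effect on the values was not tested.

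The 96 spike-ins and 26248 entries with numeric identifiers were left out of gene totals, where the numeric entries held 3 and 2 expected counts. Levels are deposited TPM, with mean and SD over 2 samples of 1 group, and detection means 1 TPM in both. Shares use nuclear protein-coding genes. Expected counts were scaled by TMM in edgeR 4.0.16 (R 4.3.3; DESeq2 1.42.0 size factors as an alternative) and compared as log2 ratios with a prior of 0.5 and a minimum mean count of 50. Counting intervals are exact (Clopper-Pearson, 95%) on rounded counts, cover counting error only, and were tested on simulated data. With 1 group no p-value was computed. Full-length coding transcripts are those annotated as protein coding with no end marked as not found. This class was chosen after seeing the data. Members, pairs, neighbours and markers were chosen with earlier results of these data known. Named are all members of pairs, the 5 highest and 5 lowest, the 3 farthest apart between mice in each direction, and those that differ between quantifiers; other members are named where a transcript class stood out. Protein identities between paralogs were not computed, and 1 neighbour gene is not reported here.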

Additional observations from a re-analysis of the deposited data

How the results depend on the processing

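The median member level of 87.1 TPM was 92.6 TPM in the direct table, 68.9 in FPKM, 223 after rescaling to nuclear protein-coding genes and 68.4 over full-length coding transcripts. Leaving out either replicate gave 85.6 to 88.7 TPM. The count of detected members ran from 45 at 5 TPM to 48, and the share of nuclear protein-coding TPM from 2.32% to 2.42% over all settings tried. With no filter on low counts, 1 member was 2-fold apart between the mice, Pdha2 with 2 and 0 counts, and with the other settings tried none was. The median log2 ratio of the members was -0.041 with DESeq2 size factors, -0.074 with total counts and -0.20 with spike-ins, where the median of all genes moved by a similar amount. The median protein-coding share of 95.2% was 81.1% when only full-length coding transcripts counted, and 94.8% to 95.6% with 1 replicate left out. The same dominant transcript was found in 39 members, in 36 of 44 at 10 TPM, in 32 of 33 where it led by 1.5 times, and in 39 with either replicate left out.

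The ratios with a value in both mice were recomputed in 155 cases over 31 ratios, leaving 1 replicate out not counted, since with 2 mice that moves a mean by a fixed part of its SD. Of these, 89 moved by less than 1 SD over the mice, 62 by more, and 4 changed sides of 1. Most of the 89 came from posterior mean TPM or from adding 0.1 or 1 to each TPM. Such changes leave ratios of well-expressed genes nearly as they were. In the direct table and over full-length coding transcripts most ratios moved by more than 1 SD. 14 of the 31 ratios moved by over 1.5 times under at least 1 alternative. Dlat to Dld was 1.44 in the direct table and 0.929 to 1.02 with 1 replicate left out. It was 0.694 over full-length coding transcripts of the aligned table. Pdp1 to Pdp2 was 0.903 to 1.06 with 1 replicate left out. Over full-length coding transcripts of the aligned table, a choice made after seeing the data, Me3 to Me1 was 0.0341, Me3 to Me2 0.483 and Mccc1 to Mccc2 0.817. The cause of these changes was not tested, and both tables rest on the same reads.

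No paired analysis was possible because the study has 1 group. At this depth, Pdha2, Bcat1 and Bdh2 had too few counts for a comparison between mice, and 2 samples allow no test of a difference between animals.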
